A study of Mus musculus with 34 samples.

Results

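The effect of losing the insulin receptor in skeletal muscle was set against the effect of losing the IGF-1 receptor, gene by gene. For each gene the quantity of interest was the change in insulin receptor knockout muscle (MIRKO minus its floxed controls, IRlox) less the change in IGF-1 receptor knockout muscle (MIGF1RKO minus its floxed controls, IGFRlox). The libraries were chosen by their titles, 4 MIRKO, 3 IRlox, 5 MIGF1RKO and 4 IGFRlox, which makes 16 of the 34 libraries of the study. No library is shared between the MIRKO and the MIGF1RKO comparison. All were made from stranded total RNA of quadriceps and gastrocnemius, powdered and mixed, from male mice on a background mixed from C57Blk6, C57Blk6J and 129, in which the Nnt gene can be mutated. MIRKO mice lack the insulin receptor gene Insr where Cre is driven by Acta1, the skeletal muscle actin gene, and MIGF1RKO mice lack Igf1r in muscle. The driver used for MIGF1RKO is not given in the sources used here, and neither are ages, feeding state or the deleted exons. IRlox and IGFRlox mice carry the floxed alleles and were littermates of the knockouts within separately kept colonies. The other libraries are labelled MIGIRKO (both receptors deleted), QKO (both receptors and FoxO1, FoxO3 and FoxO4 deleted) or as their floxed controls, and they served the estimate of spread and a check of shared genes.

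The insulin receptor and the IGF-1 receptor are closely related receptor tyrosine kinases that can form hybrid receptors with each other. Both signal through insulin receptor substrate proteins to phosphatidylinositol 3-kinase and Akt, which keeps FoxO transcription factors out of the nucleus. In muscle, insulin is best known for driving glucose uptake and glycogen synthesis, and IGF-1 for growth.

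Total counts were 4092536 to 5349779 in MIRKO, 3880455 to 6117074 in IRlox, 3295702 to 5084892 in MIGF1RKO and 3727904 to 6050260 in IGFRlox. The TMM scaling factor averaged 1.14 ± 0.11 (SD, n = 4) in MIRKO and 0.950 ± 0.032 (n = 3) in IRlox, against 0.965 ± 0.033 (n = 5) in MIGF1RKO and 0.911 ± 0.013 (n = 4) in IGFRlox. Of the 4 MIRKO libraries, MIRKO 4 correlated best with a MIGIRKO library (r = 0.984 over log2 CPM, a scale of counts relative to the library total), and MIRKO 1 and MIRKO 3 with another, MIGIRKO 6. MIRKO 2 correlated best with a MIGF1RKO library. The highest correlation with its own group was 0.954 for MIRKO 4 and 0.958 for MIGIRKO 6, whose nearest library was MIRKO 3 (0.976). Chrna1 was 354 CPM in MIRKO 4 and 189 to 313 in MIGIRKO 1 to 5, and 53.8 in MIGIRKO 6 and 54.0 to 61.5 in MIRKO 1 to 3. Whether these 2 labels were exchanged was not tested. They were kept, and the leading results are given with and without MIRKO 4. Without it 13 genes were called in MIRKO in place of 170, and of the 30 MIRKO calls among the pathway and marker lists below all kept their sign and 6 kept their call (Cpt2, Grb14, Igfbp5, Insr, Mb and Ostn). The 30 calls were made with the remaining libraries in the fit too, so the kept signs are no independent check. Library numbers in the titles fall into 6 runs of consecutive numbers. MIRKO and IRlox share 1 run, with 1 library each, and MIGF1RKO and IGFRlox share 3, with 3 libraries each. Within the MIRKO and IRlox libraries alone, run and genotype can therefore hardly be told apart. A fit with runs as a block estimates the run effects from all groups together and takes them to be equal in each. The muscle fiber markers, among them Acta1, Ckm and Myh4, were the most abundant of 9 marker lists in every group. They summed to 88288 to 146900 CPM in MIRKO, 167145 to 189278 in IRlox, 136684 to 172793 in MIGF1RKO and 142147 to 201231 in IGFRlox.

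The targeted genes came first. Insr (ENSMUSG00000005534, GRCm38 chromosome 8, 3122061 to 3279617) was 42.8, 47.5, 42.5 and 50.7 CPM (counts over the scaled library total) in MIRKO, against 172, 171 and 146 in IRlox. In the other colony it was 171, 174, 199, 204 and 208 CPM in MIGF1RKO and 175, 255, 233 and 196 in IGFRlox. Every MIRKO library was below every IRlox library, while MIGF1RKO and IGFRlox overlapped. Every IRlox library was below every IGFRlox library (log2 change -0.40 ± 0.16, adjusted p = 0.41), a gap that the difference of effects contains. The difference of effects was -1.66 ± 0.22 on the log2 scale (SE; 95% interval -2.11 to -1.21; edgeR quasi-likelihood test, Benjamini-Hochberg adjusted p = 0.00015), the most firmly called of all genes, and it was called under every alternative tried. Igf1r (ENSMUSG00000005533, chromosome 7, 67952827 to 68233668) was 18.7, 21.5, 29.2 and 19.0 CPM in MIRKO and 18.0, 16.8 and 12.5 in IRlox. It was 11.2, 10.8, 7.57, 9.92 and 9.67 CPM in MIGF1RKO and 13.5, 16.9, 20.4 and 15.4 in IGFRlox. Its libraries did not overlap in either comparison, higher in MIRKO and lower in MIGF1RKO. The difference of effects, 1.25 ± 0.31 (95% interval 0.61 to 1.88), missed the threshold (adjusted p = 0.29), as did the change in MIGF1RKO (-0.75 ± 0.21, adjusted p = 0.10). Whole-gene counts therefore show the Insr deletion and, for Igf1r, lower values short of the threshold, in tissue that also holds cells the deletion does not target.

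Across 13646 tested genes, with a gene called at an adjusted p under 0.05, the difference of effects was called for 3 genes (0.022%), Insr, Cpt2 and Map3k7cl, all of them lower. At an unadjusted p under 0.05 there were 1166 (8.54%). MIRKO against IRlox had 170 called genes (1.25%), 52 higher (0.381%) and 118 lower (0.865%), and 17.2% had an unadjusted p under 0.05. MIGF1RKO against IGFRlox had 84 (0.616%), 36 higher (0.264%) and 48 lower (0.352%), and 10.5% had an unadjusted p under 0.05. The same direction was called in both knockouts for 21 genes (0.154% of those tested), 9 higher and 12 lower, and opposite directions for 0. These 21 were 12.4% of the MIRKO calls and 25.0% of the MIGF1RKO calls.

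**Figure D1:**
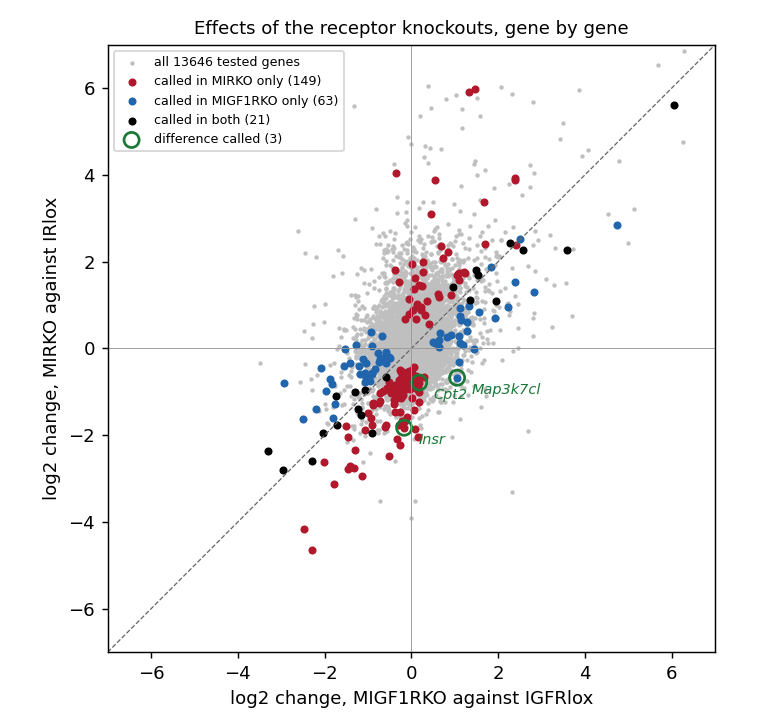
Log2 change in MIRKO against IRlox (vertical axis) and in MIGF1RKO against IGFRlox (horizontal axis) for 13646 tested genes; the dashed line marks equal changes. The 21 genes called in both (black) lie in the quadrants of equal sign, and the 3 genes called for the difference (green rings) lie below the dashed line.

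For sequence context the 250 bases before the annotated start are shown for 3 genes the results turn on, Chrna1 and Mss51, which lead the shared changes in each direction by the naming rule, and the lipid gene called for the difference, Cpt2. They come from RefSeq's promoter table for GRCm38.p6 and are read 5′ to 3′ on the gene's own strand, which is the minus strand for all 3. For Cpt2 the RefSeq start lies inside the gene span given below, so its window overlaps that span. Distances are counted from the RefSeq start. Capitals mark matches to the E-box motifs CAGCTG and CACCTG, the kind of site that myogenic factors such as myogenin bind, searched on both strands. A CACCTG match on the opposite strand reads CAGGTG.
Chrna1, chr2:73580339-73580588: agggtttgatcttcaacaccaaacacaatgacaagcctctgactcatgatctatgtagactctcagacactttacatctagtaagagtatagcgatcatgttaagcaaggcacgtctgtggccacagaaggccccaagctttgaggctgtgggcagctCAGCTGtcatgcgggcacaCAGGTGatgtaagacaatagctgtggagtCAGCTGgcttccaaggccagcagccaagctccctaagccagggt
Mss51, chr14:20496902-20497151: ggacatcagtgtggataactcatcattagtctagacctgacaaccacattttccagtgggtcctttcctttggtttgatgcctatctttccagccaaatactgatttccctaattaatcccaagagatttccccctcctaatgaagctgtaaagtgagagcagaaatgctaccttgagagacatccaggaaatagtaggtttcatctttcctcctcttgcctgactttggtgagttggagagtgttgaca
Cpt2, chr4:107923590-107923839: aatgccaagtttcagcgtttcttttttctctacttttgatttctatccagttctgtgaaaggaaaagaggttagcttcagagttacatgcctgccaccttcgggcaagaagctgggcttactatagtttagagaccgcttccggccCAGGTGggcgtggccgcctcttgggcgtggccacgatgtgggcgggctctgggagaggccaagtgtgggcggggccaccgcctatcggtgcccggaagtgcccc
The Chrna1 window held CAGCTG at 92 to 87 and at 44 to 39 bases before the start and CACCTG, on the opposite strand, at 73 to 68. Cpt2 held CACCTG on the opposite strand at 104 to 99 bases, and Mss51 held neither. Of 27025 genes with a RefSeq promoter, 14.7% held CAGCTG and 19.4% CACCTG within this length in any listed promoter. Among the 12 genes called in both knockouts that the table lists, 5 held CAGCTG, 3 held CACCTG and 0 held the FoxO element GTAAACA, which 3.54% of the 27025 genes held. None of the marked matches overlaps another, and a match is a description of sequence only.

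The genes called in both knockouts were led by a muscle membrane receptor that rose and by Mss51, which fell. Chrna1 encodes the alpha subunit of the muscle acetylcholine receptor, which fibers make along their whole length when they lose their nerve (ENSMUSG00000027107, chromosome 2, 73563215 to 73580338). It was 61.5, 54.0, 59.6 and 354 CPM in MIRKO, against 26.9, 15.7 and 31.1 in IRlox, and 107, 93.1, 172, 47.6 and 89.7 CPM in MIGF1RKO, against 19.5, 19.7, 20.4 and 24.9 in IGFRlox. Every knockout library was above every floxed library of its colony, and MIRKO 4 was far above the other 3 MIRKO libraries. The change was 2.42 ± 0.62 in MIRKO (adjusted p = 0.046) and 2.26 ± 0.54 in MIGF1RKO (adjusted p = 0.047), and the difference of effects was 0.16 ± 0.78 (95% interval -1.44 to 1.76). Without MIRKO 4 the MIRKO change was 1.24 (adjusted p = 0.30) and the difference -1.03.

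Scn3b, a beta subunit of voltage-gated sodium channels (ENSMUSG00000049281, chromosome 9, 40269217 to 40291618), was 10.9, 8.67, 18.0 and 10.1 CPM in MIRKO, against 4.31, 3.30 and 3.49 in IRlox. In the other colony it was 7.40, 10.3, 11.2, 10.4 and 12.0 CPM in MIGF1RKO, against 3.00, 4.28, 4.29 and 2.49 in IGFRlox. The values were of like size in the 2 knockouts and did not overlap with controls. The changes were 1.69 ± 0.33 in MIRKO (adjusted p = 0.0090) and 1.53 ± 0.29 in MIGF1RKO (adjusted p = 0.0065), with a difference of 0.16 ± 0.44 (95% interval -0.73 to 1.06).

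Of the 21, 3 take part in membrane traffic, a grouping made after their values were seen. Sytl2, a Rab effector in vesicle docking (ENSMUSG00000030616, chromosome 7, 90302252 to 90410719), was 17.6, 16.2, 19.9 and 14.2 CPM in MIRKO, against 7.27, 9.64 and 6.97 in IRlox. It was 20.9, 15.4, 20.0, 12.4 and 14.9 CPM in MIGF1RKO, against 4.20, 3.81, 4.29 and 4.99 in IGFRlox. The knockout groups overlapped each other, while IGFRlox lay wholly below IRlox (log2 change of IRlox against IGFRlox 0.86 ± 0.31, adjusted p = 0.32). Sytl2 rose by 1.10 ± 0.28 in MIRKO (adjusted p = 0.044) and 1.94 ± 0.27 in MIGF1RKO (adjusted p = 0.00022), and its difference, -0.84 ± 0.39, had a 95% interval of -1.63 to -0.06 but an adjusted p of 0.57. Ehd4, of endocytic recycling, rose in both (82.4 to 204 CPM in MIRKO, against 45.2 to 54.0 in IRlox, 70.7 to 114 in MIGF1RKO and 38.7 to 53.6 in IGFRlox). The small GTPase Rab12 fell in both, by 0.66 ± 0.16 in MIRKO (adjusted p = 0.034) and by 0.59 ± 0.14 in MIGF1RKO (adjusted p = 0.035).

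Mss51 is a zinc finger protein that muscle fibers express and that is named after a yeast activator of cytochrome oxidase synthesis (ENSMUSG00000021815, chromosome 14, 20482867 to 20496901). It was 4.86, 8.67, 5.96 and 2.67 CPM in MIRKO, against 35.3, 48.5 and 32.4 in IRlox, and 7.91, 7.81, 5.15, 9.67 and 7.91 CPM in MIGF1RKO, against 43.2, 77.1, 45.4 and 74.2 in IGFRlox. Every knockout library of either colony was below every floxed library of either colony. Mss51 was 7.02-fold lower in MIRKO (log2 -2.81 ± 0.51, adjusted p = 0.0070) and 7.73-fold lower in MIGF1RKO (-2.95 ± 0.45, adjusted p = 0.00096). The difference of effects was 0.14 ± 0.69, with a 95% interval of -1.28 to 1.56.

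Ostn, which encodes the secreted muscle peptide musclin (ENSMUSG00000052276, chromosome 16, 27307489 to 27351212), was 2.54, 5.32, 1.73 and 2.52 CPM in MIRKO, against 23.7, 19.5 and 11.5 in IRlox. It was 10.5, 3.59, 2.73, 5.95 and 2.93 CPM in MIGF1RKO, against 17.1, 25.2, 29.5 and 29.9 in IGFRlox. It fell by 2.59 ± 0.43 in MIRKO (adjusted p = 0.0038) and by 2.30 ± 0.37 in MIGF1RKO (adjusted p = 0.0010), and the groups did not overlap in either colony. Aldh1a1, a retinaldehyde dehydrogenase (ENSMUSG00000053279, chromosome 19, 20492715 to 20643465), was 42.3, 46.7, 44.4 and 25.3 CPM in MIRKO, against 169, 147 and 143 in IRlox. In MIGF1RKO it was 78.6, 74.3, 54.5, 99.97 and 90.0 CPM, against 160, 137, 160 and 135 in IGFRlox. The 2 floxed groups overlapped, and every MIRKO library was below every MIGF1RKO library. Its changes were -1.95 ± 0.23 in MIRKO (adjusted p = 7.7e-06) and -0.90 ± 0.20 in MIGF1RKO (adjusted p = 0.028), and the difference, -1.05 ± 0.31 with a 95% interval of -1.68 to -0.43, did not pass over all genes (adjusted p = 0.36).

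Actr3b, Ctnna3, Sorbs2 and Ripor2, placed together after their values were seen, fell in both knockouts. Actr3b, a subunit of the actin-nucleating Arp2/3 complex, was 11.8, 13.4, 2.98 and 2.52 CPM in MIRKO, against 24.8, 38.3 and 23.9 in IRlox. It was 9.70, 13.3, 6.67, 20.1 and 21.7 CPM in MIGF1RKO, against 46.5, 97.3, 46.6 and 46.5 in IGFRlox. Its changes were -1.96 ± 0.47 in MIRKO (adjusted p = 0.035) and -2.05 ± 0.40 in MIGF1RKO (adjusted p = 0.0083), although the spread within MIRKO was wide. Ctnna3, an alpha-catenin of cell junctions, fell by 1.40 ± 0.33 in MIRKO (adjusted p = 0.033) and by 1.24 ± 0.29 in MIGF1RKO (adjusted p = 0.032). Sorbs2, an adaptor at the Z-disc and actin fibers, was 31.5 to 48.5 CPM in MIRKO, against 71.1 to 86.4 in IRlox, and 28.5 to 54.2 in MIGF1RKO and 84.2 to 131 in IGFRlox. Ripor2, a regulator of the GTPase RhoA, had the larger fall in MIGF1RKO (-1.73 ± 0.24, adjusted p = 0.00022) and fell by 1.10 ± 0.26 in MIRKO (adjusted p = 0.030), with a difference of 0.64 ± 0.36 (95% interval -0.09 to 1.36).

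The zinc transporter gene Slc30a2 fell by 1.77 ± 0.35 in MIRKO (adjusted p = 0.013) and by 1.71 ± 0.29 in MIGF1RKO (adjusted p = 0.0016), and Cdk19, a kinase of the Mediator complex, fell by 0.96 ± 0.25 in MIRKO (adjusted p = 0.048) and by 1.07 ± 0.22 in MIGF1RKO (adjusted p = 0.012). Odf3l2 was 2.78, 2.36, 4.55 and 0.148 CPM in MIRKO, against 12.4, 13.8 and 11.6 in IRlox, and 2.30, 4.01, 2.12, 2.23 and 2.64 CPM in MIGF1RKO, against 25.2, 18.1, 46.3 and 18.1 in IGFRlox. Tdrp also fell in both, and Shisal1, Ccdc141 and Mfhas1 rose in both. Shisal1 was 3.30 to 6.90 CPM in MIRKO, against 0.807 to 1.38 in IRlox, and 4.65 to 8.48 in MIGF1RKO and 0.416 to 1.80 in IGFRlox, so each floxed value rests on few counts. Ccdc141 was 30.4 CPM in MIRKO 4 and 9.95 to 13.2 in the other MIRKO libraries. The RNA Gm10851 rose in both but lies opposite to Pfkfb3, which had 38144 counts in these 16 libraries against 285 for Gm10851, and its counts are uncertain because the strand setting of the counting is not given. A4gnt, a glycosyltransferase gene, had 3, 1, 6 and 19 counts in MIRKO and 5, 11, 8, 6 and 3 in MIGF1RKO, against 0 in all 7 floxed libraries. Aldh1a1, Rab12 and A4gnt fell outside the naming rule and were named after their values were seen.

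**Figure D2:**
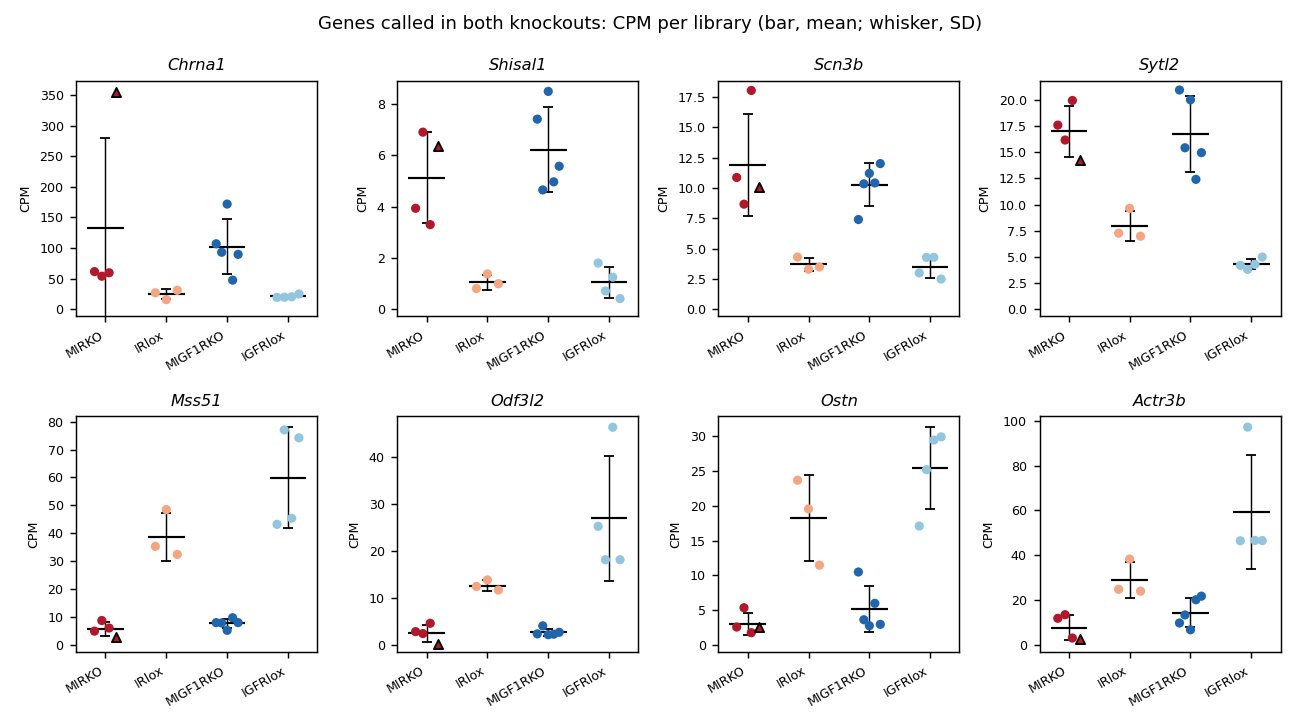
CPM per library for 8 of the 21 genes called in both knockouts, in MIRKO, IRlox, MIGF1RKO and IGFRlox; bars are means, whiskers SD, and the triangle with a black edge is the library labelled MIRKO 4. In each panel the knockout libraries do not overlap with their floxed controls, and for Chrna1 the triangle stands at 354 CPM.

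The size of the shared changes was compared next. Of the 21 genes, 10 had the larger absolute change in MIRKO and 11 in MIGF1RKO. The 95% interval of the difference included 0 for 19 and excluded it for Aldh1a1 and Sytl2, and the difference was called for 0. These intervals were wide. The median SE of the difference was 0.44 over the 21 genes and 0.35 over all tested genes, so gaps between the knockouts that are not small could also go uncalled. Among all tested genes, differences of -1.04 ± 0.23 for Mdh1 (adjusted p = 0.20) and 1.83 ± 0.46 for Trpv4 (adjusted p = 0.29) were not called. In both comparisons the libraries of all 21 genes did not overlap between knockout and floxed mice, always in the same direction. Such a pattern in both comparisons was seen for 210 tested genes (1.54%). As the 21 were chosen by calls of equal sign in these same libraries, nothing is read from their lack of overlap. Without regard to the other comparison, 16.1% of tested genes did not overlap between MIRKO and IRlox and 5.14% between MIGF1RKO and IGFRlox.

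The shared set depended on the libraries. Without MIRKO 4, MIRKO against IRlox had 13 called genes and 3 genes were called in both knockouts, Scn3b, Ostn and Aldh1a1. All 21 genes kept their sign in both comparisons, had an unadjusted p under 0.05 in MIRKO and were called in MIGF1RKO. In this setting 1760 of 13560 tested genes had an unadjusted p under 0.05 in MIRKO. The 21 were chosen with all remaining libraries in the fit, and the MIGF1RKO and IGFRlox libraries were unchanged, so this is no independent check. The MIRKO change without this library was -2.56 for Mss51 (adjusted p = 0.064), -2.50 for Ostn (0.037), 1.77 for Scn3b (0.037) and -1.78 for Aldh1a1 (0.00010). Leaving out each other library gave 4 to 25 shared genes, with 9 without MIRKO 3, 6 without IRlox 1, 4 without IRlox 2 and 7 without IRlox 3. With the 6 runs of consecutive library numbers in the titles as a block, 13 genes were called in both, 12 of them among the 21.

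The libraries labelled MIGIRKO and QKO, which by their labels share no library with these comparisons, were used to look at the 21 genes again, after their values were seen. Whether the labels of MIRKO 4 and MIGIRKO 6 were exchanged was not tested, and an exchange would affect both sets. Insr fell by 1.68 ± 0.15 on the log2 scale in MIGIRKO (adjusted p = 2.0e-09). In QKO it fell by 1.99 ± 0.16 (adjusted p = 2.7e-10). Igf1r was 17.0, 20.5, 15.1, 17.7, 15.7 and 25.7 CPM in MIGIRKO, against 20.3, 18.9 and 16.5 in IRIGFRlox, a change of 0.0035 ± 0.21 (adjusted p = 0.99), so whole-gene counts did not show its loss there. In QKO it fell by 1.09 ± 0.25 (adjusted p = 0.027). All 21 were called in the libraries labelled MIGIRKO against its own floxed controls in the same direction, beside 33.7% of all tested genes (17% higher and 16.7% lower), and 18 had a larger absolute change there than in both single knockouts. How many of all tested genes had such a larger change was not counted, so nothing is read from the 18. Mss51 changed by -4.80 ± 0.44 in MIGIRKO (adjusted p = 1.5e-08), Odf3l2 by -6.10 ± 0.55 (adjusted p = 1.0e-08), Aldh1a1 by -2.92 ± 0.21 (adjusted p = 2.3e-11) and Chrna1 by 3.51 ± 0.63 (adjusted p = 0.00013). In QKO, where FoxO1, FoxO3 and FoxO4 are deleted too, 2 of the 21 were called, Mfhas1 (1.62 ± 0.34, adjusted p = 0.011) and Sorbs2 (-1.32 ± 0.24, adjusted p = 0.0020), beside 0.506% of all tested genes. There 20 of the 21 had the same sign, 14 of them with an unadjusted p under 0.05, while Gm10851 had the opposite sign. Of all tested genes, 11.6% had an unadjusted p under 0.05 in QKO in either direction. How many of all tested genes had the same sign in QKO was not counted, so nothing is read from the 20 and the 14. Mss51 changed by -1.23 ± 0.44 in QKO (adjusted p = 0.27) and Aldh1a1 by -0.11 ± 0.24 (adjusted p = 0.89). The differences between QKO and the single knockouts were not tested.

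Beside Insr, which the design fixes, the effects of the 2 knockouts differed for a gene of fatty acid oxidation. Cpt2 encodes carnitine palmitoyltransferase 2, which turns imported acylcarnitines back into acyl-CoA inside mitochondria (ENSMUSG00000028607, chromosome 4, 107903981 to 107923610). It was 51.6, 42.2, 42.1 and 31.9 CPM in MIRKO, against 72.1, 71.9 and 72.4 in IRlox, and 67.4, 62.3, 75.4, 66.0 and 68.9 CPM in MIGF1RKO, against 68.3, 54.2, 56.4 and 61.3 in IGFRlox. All MIRKO libraries were below all libraries of the other 3 groups, and MIGF1RKO overlapped with IGFRlox. Every IRlox library was above every IGFRlox library (log2 change 0.27 ± 0.13, adjusted p = 0.51), a gap that the difference of effects contains. Cpt2 fell in MIRKO by 0.79 ± 0.13 (adjusted p = 0.0041) and had a change of 0.18 ± 0.12 in MIGF1RKO (adjusted p = 0.67). The difference was -0.97 ± 0.18, with a 95% interval of -1.33 to -0.60 (adjusted p = 0.029). Without MIRKO 4 it was -0.85 (adjusted p = 0.11), with runs as a block -0.86 (0.50), and over the 16 leave-one-out fits it was called in 4, at -1.08 to -0.85. The call was also lost with library totals only, with no filter and with the 16 libraries alone.

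Map3k7cl, a gene named for its likeness to the C-terminal part of the kinase TAK1, had changes of opposite sign (ENSMUSG00000025610, chromosome 16, 87553330 to 87595336). It was 14.3, 17.3, 10.0 and 16.9 CPM in MIRKO, against 27.7, 23.1 and 19.6 in IRlox, and 28.3, 20.9, 40.9, 25.8 and 20.8 CPM in MIGF1RKO, against 12.3, 12.8, 13.9 and 13.3 in IGFRlox. The groups did not overlap in either colony, lower in MIRKO and higher in MIGF1RKO, a pattern that 8 of the tested genes (0.0586%) had in one order or the other. The change was -0.67 ± 0.22 in MIRKO, short of the threshold (adjusted p = 0.11), and 1.05 ± 0.20 in MIGF1RKO (adjusted p = 0.0062). The difference was -1.73 ± 0.30, with a 95% interval of -2.33 to -1.12 (adjusted p = 0.012), and -1.81 without MIRKO 4 (adjusted p = 0.014). The floxed groups differed for this gene too, with every IRlox library above every IGFRlox library (log2 change 0.83 ± 0.22, adjusted p = 0.14), and MIGF1RKO values overlapped with IRlox values. As the difference of effects contains the difference between floxed colonies, the 2 cannot be told apart for Map3k7cl. Blocking on library runs ended the call (-1.48, adjusted p = 0.31), and so did leaving out MIRKO 3 (0.051) or IRlox 1 (0.094), library totals only, the 16 libraries alone and DESeq2.

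**Figure D3:**
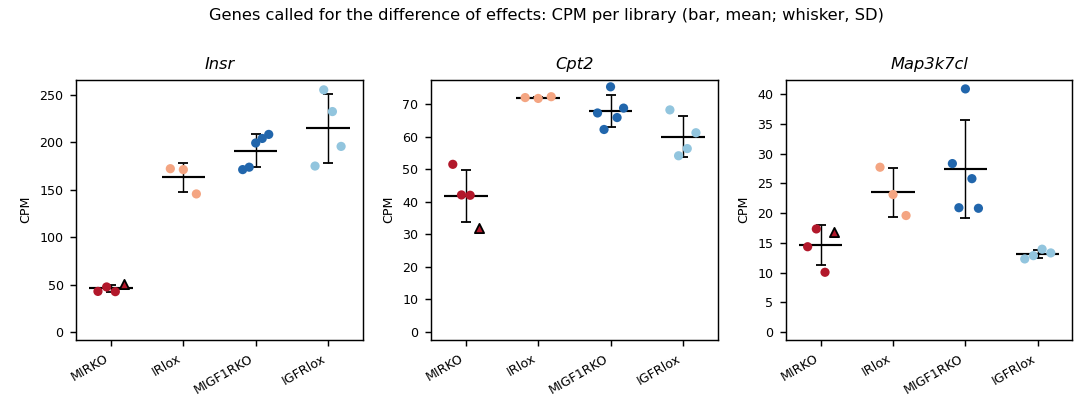
CPM per library of Insr, Cpt2 and Map3k7cl in MIRKO, IRlox, MIGF1RKO and IGFRlox; bars are means, whiskers SD, and the triangle with a black edge is the library labelled MIRKO 4. Insr and Cpt2 are low in MIRKO alone among the 4 groups, and Map3k7cl is low in MIRKO and IGFRlox.

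**Figure D4:**
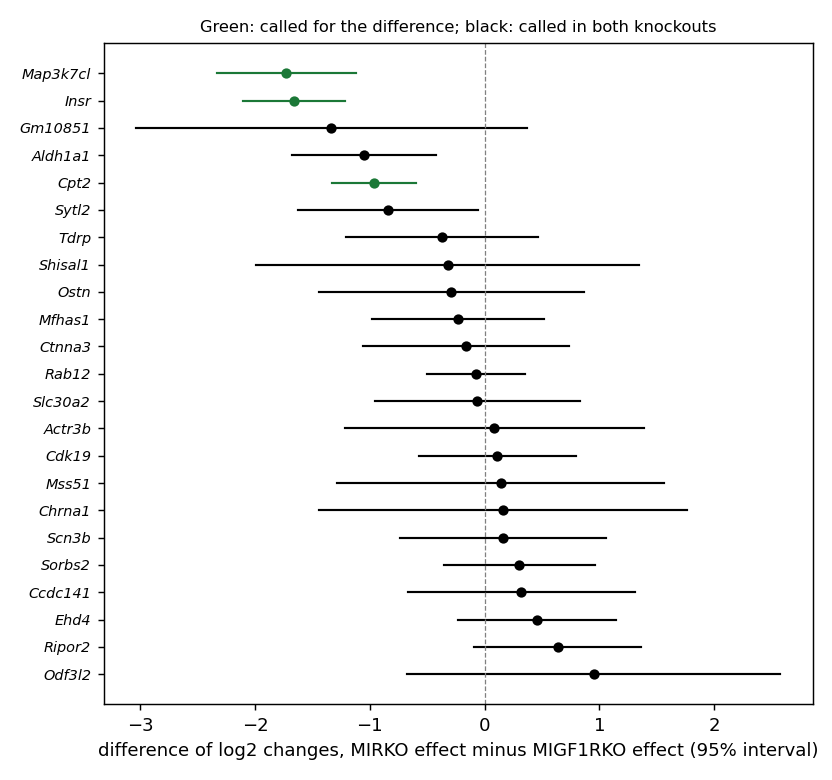
Difference of log2 changes, MIRKO effect minus MIGF1RKO effect, with its 95% interval, for the 3 genes called for the difference (green) and 20 of the 21 genes called in both knockouts (black; A4gnt, at 0 in all floxed libraries, has no usable interval). Most black intervals are wide and cross 0, and those of Aldh1a1 and Sytl2 lie below it.

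For most genes called in 1 knockout only, the difference of effects was not called. Of the 149 genes called in MIRKO alone, 125 (83.9%) had the same sign in MIGF1RKO and 45 (30.2%) had the same sign with an unadjusted p under 0.05. The difference was called for 2 of the 149, Insr and Cpt2. Of the 63 called in MIGF1RKO alone, 56 (88.9%) had the same sign in MIRKO and 24 (38.1%) also an unadjusted p under 0.05, and the difference was called for Map3k7cl. The 95% interval of the difference excluded 0 for 93 of the 149 (62.4%) and 24 of the 63 (38.1%), beside 8.54% of all tested genes, and as these genes were chosen by a call in 1 of the 2 effects that make up the difference, nothing is read from those shares. For comparison, the sign was the same for 57.7% of all tested genes, the same with an unadjusted p under 0.05 in both for 2.73%, and opposite by that rule for 0.264%. Across the 13646 genes, which are not independent of each other, the 2 sets of changes had a Pearson r of 0.39, and 0.35 among genes called in neither.

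Genes of insulin and IGF signalling showed how this looked within the pathway. Of its 51 tested genes 1 was called higher (Igf2) and 3 lower in MIRKO, among them the deleted Insr, beside 0.381% and 0.865% of all tested genes. In MIGF1RKO 0 were called, beside 0.616%, and 1, Insr, for the difference, beside 0.022%. The growth factor gene Igf2 was 70.6, 94.97, 96.4 and 839 CPM in MIRKO, against 23.7, 24.8 and 31.2 in IRlox, and 66.6, 70.5, 109, 42.7 and 85.6 CPM in MIGF1RKO, against 20.1, 21.9, 26.1 and 25.4 in IGFRlox. It was higher in all knockout libraries of both colonies, by 3.37 ± 0.79 in MIRKO (adjusted p = 0.034) and 1.67 ± 0.65 in MIGF1RKO, short of the threshold (adjusted p = 0.32), and MIRKO 4 was far above the rest. Without MIRKO 4 the MIRKO change was 1.71 (adjusted p = 0.24) and the difference 0.037. Grb14, an adaptor that binds the activated insulin receptor and inhibits it, was 7.63, 10.6, 5.02 and 2.22 CPM in MIRKO, against 21.0, 20.9 and 21.8 in IRlox. It was 12.8, 14.2, 13.6, 18.9 and 20.5 CPM in MIGF1RKO, against 24.0, 24.0, 22.3 and 26.2 in IGFRlox. The change was -1.77 ± 0.33 in MIRKO (adjusted p = 0.0069) and -0.59 ± 0.27 in MIGF1RKO (adjusted p = 0.42), and the difference -1.17 ± 0.43 (adjusted p = 0.48). Igfbp5, which binds IGFs outside the cell, fell by 1.07 ± 0.19 in MIRKO (adjusted p = 0.0054) and had a change of -0.20 ± 0.17 in MIGF1RKO (adjusted p = 0.78). The receptor substrate genes Irs1 and Irs2 had differences of -0.01 ± 0.28 and 0.36 ± 0.33, the kinase gene Akt2 0.30 ± 0.21 and the glucose transporter gene Slc2a4 -0.12 ± 0.26, none of them called.

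Respiratory chain genes had medians below 0 in MIRKO and near 0 in MIGF1RKO, with few calls. The 36 complex I subunits had a median log2 change of -0.75 in MIRKO and -0.02 in MIGF1RKO, with a median difference of -0.74, and 35 of the 36 differences were below 0. Medians over all tested genes were 0.03 in MIRKO, 0.00 in MIGF1RKO and 0.02 for the difference. The 41 subunits of complexes II to V had medians of -0.68 in MIRKO, -0.02 in MIGF1RKO and -0.64 for the difference. For the 13 mRNAs encoded in mitochondrial DNA they were -0.69 in MIRKO, 0.08 in MIGF1RKO and -0.82 for the difference. Called genes were 2 of complex I (Ndufa8 and Ndufs1), 1 of complexes II to V (Cox5a) and 1 mitochondrial mRNA (mt-Nd2) in MIRKO, all lower, beside 0.865% of all tested genes, and 0 in MIGF1RKO or for the difference. The muscle fiber markers had a median of -0.64 in MIRKO, -0.17 in MIGF1RKO and -0.44 for the difference, where all 9 were below 0, and the macrophage and leukocyte markers 1.06 in MIRKO, 0.28 in MIGF1RKO and 0.76 for the difference. Their part in the respiratory chain values was not tested. Of these 90 genes, 33 had a difference below 0 and 1 above 0 at an unadjusted p under 0.05, where 4.47% of all tested genes were lower and 4.07% higher by that rule.

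The libraries showed the same. Summed complex I subunits were 4509, 3526, 3193 and 3655 CPM in MIRKO, against 6490, 5862 and 5805 in IRlox, and 5868, 5856, 5314, 4224 and 4697 CPM in MIGF1RKO, against 6846, 4582, 4400 and 5949 in IGFRlox. MIRKO did not overlap with IRlox, and MIGF1RKO lay within the range of IGFRlox except for 1 library. The gene of the list with the smallest p was Ndufa9, with a difference of -1.06 ± 0.30 (adjusted p = 0.36). mt-Nd2, a complex I subunit encoded in mitochondrial DNA, was 3552, 2951, 2967 and 3360 CPM in MIRKO, against 6448, 6516 and 6390 in IRlox. It was 9356, 6323, 5151, 4693 and 6205 CPM in MIGF1RKO, against 6142, 4230, 6554 and 5451 in IGFRlox, and its difference was -1.19 ± 0.31 (adjusted p = 0.30). Cycs, the electron carrier cytochrome c, had a difference of -1.15 ± 0.42 (adjusted p = 0.48).

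Without MIRKO 4 the median difference was -0.80 for complex I, -0.74 for complexes II to V and -0.94 for mitochondrial mRNAs, as large as with it. The MIRKO calls were lost without it, with adjusted p = 0.13 for Ndufa8, 0.20 for Ndufs1, 0.17 for Cox5a and 0.090 for mt-Nd2. They were also lost with library runs as a block. With library runs as a block it was -0.31, -0.32 and -0.82. With library totals in place of scaled totals it was -0.54, -0.46 and -0.62, where the median of all genes moved to 0.21. Nnt, a mitochondrial transhydrogenase, had a difference of -1.11 ± 0.66 (adjusted p = 0.65), and its part in these differences was not tested. The colony and the receptor deleted cannot be told apart, and the library runs hardly overlap between MIRKO and IRlox.

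**Figure D5:**
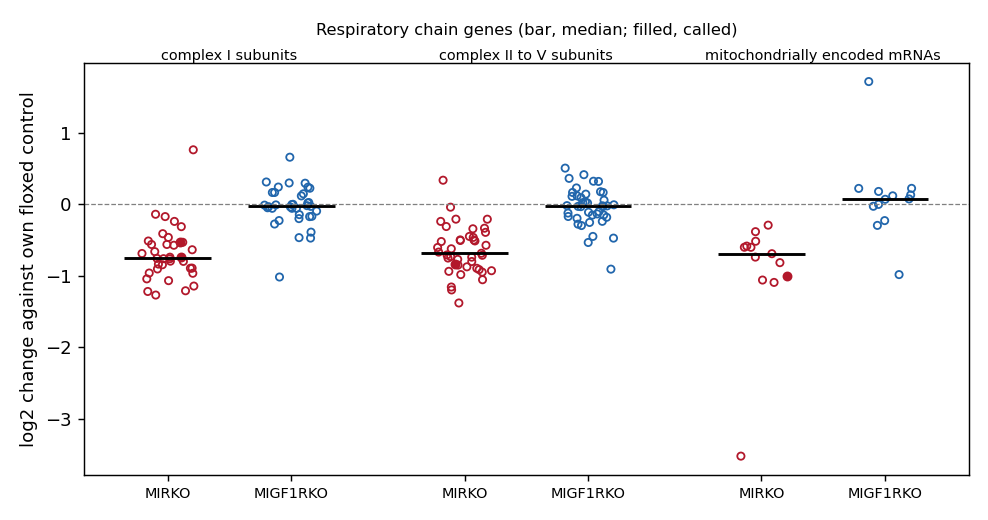
Log2 change of each tested respiratory chain gene in MIRKO against IRlox and in MIGF1RKO against IGFRlox, for complex I, complexes II to V and mitochondrially encoded mRNAs; each point is a gene and the bar is the median. The MIRKO points centre on -0.75, -0.68 and -0.69 and the MIGF1RKO points on -0.02, -0.02 and 0.08.

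Genes of the fuel oxidation that feeds the chain were examined next. Of 40 genes of pyruvate oxidation, the TCA cycle and branched-chain amino acid breakdown, 5 were called lower in MIRKO (Mdh1, Mdh2, Fh1, Suclg1 and Pdhx, beside 0.865% of all tested genes) and 0 in MIGF1RKO (0.352%), with medians of -0.43 in MIRKO, -0.02 in MIGF1RKO and -0.34 for the difference. Without MIRKO 4 none of the 5 was called (adjusted p = 0.064 to 0.19). Mdh1, the cytosolic malate dehydrogenase, was 670, 554, 449 and 434 CPM in MIRKO, against 1106, 868 and 963 in IRlox, and 999, 1017, 833, 786 and 735 CPM in MIGF1RKO, against 942, 698, 678 and 836 in IGFRlox. Its difference, -1.04 ± 0.23 (95% interval -1.51 to -0.57), missed the threshold (adjusted p = 0.20), although MIRKO lay below the other 3 groups. The 29 genes of fatty acid uptake and oxidation had a median difference of -0.26. For the difference 1 member was called, Cpt2, beside 0.022% of all tested genes. Mb, the oxygen-binding myoglobin, was 489, 384, 453 and 249 CPM in MIRKO, against 1243, 1027 and 1478 in IRlox, and 1019, 734, 951, 768 and 911 CPM in MIGF1RKO, against 1271, 672, 1019 and 1097 in IGFRlox. Mb fell by 1.67 ± 0.29 in MIRKO (adjusted p = 0.0054), and its difference was -1.45 ± 0.39 (adjusted p = 0.31). Of the 30 slow fiber and oxidative program genes that include Mb, 2 were called lower in MIRKO (0.865% of all genes) and 1 in MIGF1RKO (0.352%), and the median difference was -0.06.

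Of 36 genes of glucose uptake, glycolysis and glycogen, 2 were called lower in MIRKO, the lactate dehydrogenase gene Ldhb (-0.88 ± 0.21, adjusted p = 0.030) and Pfkfb1, which makes and breaks down fructose 2,6-bisphosphate (-0.94 ± 0.21, adjusted p = 0.029). In MIGF1RKO 1 was called higher, Stbd1, which binds glycogen (1.13 ± 0.26, adjusted p = 0.029), and 2 lower, the glucose transporter gene Slc2a3 (-1.18 ± 0.22, adjusted p = 0.0054) and Ppp1r3c. Of all tested genes, 0.865% were called lower in MIRKO, and 0.264% higher and 0.352% lower in MIGF1RKO. None of the list was called for the difference, which had a median of -0.17 over the list. Without MIRKO 4 that median was -0.06, and with library totals only it was -0.004. Ldhb had the smallest p for the difference, at -0.82 ± 0.27 (adjusted p = 0.47).

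Denervation and embryonic muscle genes had medians above 0 in both knockouts. Of 28 tested, 5 were called higher in MIRKO (Chrna1, Runx1, Myog, Ncam1 and Cdkn1a) and 0 lower, beside 0.381% and 0.865% of all tested genes. Without MIRKO 4 none of the 5 was called (adjusted p = 0.13 to 0.30), and the MIRKO change was 2.11 for Runx1 and 1.33 for Myog. In MIGF1RKO 2 were called higher (Chrna1 and the calcium release channel Ryr3) and 1 lower (Musk), beside 0.264% and 0.352%. The median was 1.56 in MIRKO, 0.71 in MIGF1RKO and 0.69 for the difference, with 0 called for the difference. Myog, the myogenic factor myogenin, was 12.7, 5.91, 10.0 and 34.7 CPM in MIRKO, against 3.77, 2.48 and 4.82 in IRlox, and 6.64, 5.28, 5.45, 2.48 and 2.35 CPM in MIGF1RKO, against 3.30, 2.14, 3.04 and 2.29 in IGFRlox. Runx1, a transcription factor induced by denervation, was 25.7, 14.0, 46.0 and 37.0 CPM in MIRKO, against 8.34, 6.33 and 5.48 in IRlox, and 11.5, 8.45, 16.4, 6.20 and 11.4 CPM in MIGF1RKO, against 5.10, 7.61, 5.89 and 5.20 in IGFRlox. Both overlapped with controls in MIGF1RKO only. Without MIRKO 4 the list's median was 0.91 in MIRKO, 0.71 in MIGF1RKO and -0.02 for the difference, so the larger MIRKO value rested on that library.

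Musk, a receptor kinase of the nerve-muscle synapse, shows how the floxed colonies enter. It was 17.4, 15.8, 10.8 and 24.3 CPM in MIRKO and 19.4, 17.3 and 13.3 in IRlox, and 19.4, 23.4, 26.7, 30.8 and 34.9 CPM in MIGF1RKO and 38.1, 46.6, 70.7 and 45.5 in IGFRlox. Every IRlox library was below every IGFRlox library, a called difference between controls (-1.61 ± 0.26, adjusted p = 0.0016) and 1 of 23 such genes (0.169%). Musk fell in MIGF1RKO by 0.90 ± 0.21 (adjusted p = 0.033), and its difference of effects was 0.95 ± 0.33 (adjusted p = 0.48).

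Other groups held few calls. Of all tested genes, 0.381% were called higher and 0.865% lower in MIRKO, and 0.264% higher and 0.352% lower in MIGF1RKO. Of 30 polyamine and amino acid transport genes, 1 was called higher (Slc38a1) and 1 lower (Amd2) in MIRKO and 2 lower (Odc1 and Slc38a4) in MIGF1RKO. Odc1, the first enzyme of polyamine synthesis, was called lower in MIGF1RKO (-1.04 ± 0.22, adjusted p = 0.022) with a change of -0.35 ± 0.25 in MIRKO (adjusted p = 0.50). The amino acid transporter gene Slc38a1 was 18.0, 7.68, 18.4 and 67.4 CPM in MIRKO, against 2.66 to 4.04 in IRlox, and 2.32 to 3.64 in MIGF1RKO and 1.66 to 2.68 in IGFRlox. It rose by 3.10 ± 0.73 in MIRKO (adjusted p = 0.035), and its difference was 2.65 ± 1.09 (adjusted p = 0.53). Without MIRKO 4 the MIRKO change was 2.16 (adjusted p = 0.20) and the difference 1.71. Amd2, whose counts are uncertain beside those of the similar gene Amd1, had a MIRKO change of -1.87 ± 0.46 (adjusted p = 0.035), and the amino acid transporter gene Slc38a4 changed by -0.74 ± 0.18 in MIGF1RKO (adjusted p = 0.045). Slc3a2, the heavy chain shared by several amino acid transporters, had a difference of 1.02 ± 0.26 (95% interval 0.50 to 1.54, adjusted p = 0.29), with 44.4 to 71.3 CPM in MIRKO, against 35.5 to 51.5 in IRlox, and 34.98 to 44.1 in MIGF1RKO and 50.7 to 74.4 in IGFRlox. Among 40 FoxO target, ubiquitin ligase and autophagy genes, Gadd45b, a stress-induced gene, was called lower in MIRKO (-2.22 ± 0.48, adjusted p = 0.025), and the ubiquitin ligase genes Trim63 and Fbxo32 had differences of 1.03 ± 0.52 and 0.06 ± 0.40, not called. The list's medians were -0.01 in MIRKO, -0.03 in MIGF1RKO and -0.03 for the difference.

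Of 33 growth and secreted factor genes, Ostn was called lower in both knockouts, Fndc5, the precursor of irisin, lower in MIRKO (-0.84 ± 0.21, adjusted p = 0.038), and Dkk3 lower in MIGF1RKO (-1.20 ± 0.23, adjusted p = 0.0068). Shares over all tested genes were 0.865% called lower in MIRKO, and 0.264% called higher and 0.352% called lower in MIGF1RKO. The gene for the growth inhibitor myostatin, Mstn, had changes of -1.17 ± 0.40 in MIRKO (adjusted p = 0.13) and -1.15 ± 0.35 in MIGF1RKO (adjusted p = 0.15). Among 36 membrane channel and transporter genes, the sodium channel subunit gene Scn4b was called lower in MIRKO (-0.88 ± 0.19, adjusted p = 0.026). In MIGF1RKO the potassium channel subunit gene Kcnab1 was called lower and the calcium channel subunit gene Cacnb4 higher, with differences of 0.81 ± 0.54 and -0.87 ± 0.79 that were not called. Aqp4, the water channel, had the smallest p of that list for the difference (-0.84 ± 0.30, adjusted p = 0.48). Fast fiber and sarcomere genes had a median difference of -0.34 over 28, with Mybpc1, a myosin-binding protein, at -0.83 ± 0.22 (adjusted p = 0.30). The leading genes of the remaining lists for the difference were Ppp1r15a of the ATF4 stress response (1.14 ± 0.33, adjusted p = 0.36), Nfil3 of the clock (0.78 ± 0.35, adjusted p = 0.57), Atf3 of the immediate early genes (1.83 ± 0.72, adjusted p = 0.51) and Insig1 of lipid synthesis (-0.79 ± 0.31, adjusted p = 0.51), with 0 members of these 4 lists called for the difference. Of 28 lipid synthesis genes 1, Scd2, was called higher in MIGF1RKO (0.83, adjusted p = 0.029), with a difference of -0.56 (adjusted p = 0.59).

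Of the markers of other cell types 1 was called, and in whole tissue fewer cells of a type and less RNA per cell cannot be told apart. All 14 macrophage and leukocyte markers were above 0 for the difference, with medians of 1.06 in MIRKO, 0.28 in MIGF1RKO and 0.76 for the difference. None was called. At an unadjusted p under 0.05, 5 were higher in MIRKO, beside 17.2% of all tested genes in either direction. For the difference there were 0, beside 4.07% of all tested genes higher. The macrophage and leukocyte markers summed to 717 to 1522 CPM in MIRKO, against 400 to 490 in IRlox, and to 430 to 726 in MIGF1RKO and 423 to 474 in IGFRlox. Without MIRKO 4 their median difference was 0.85. Among 8 satellite cell markers Sdc4, which other cells of muscle also express, was called higher in MIRKO (0.89 ± 0.22, adjusted p = 0.035, and 0.49 without MIRKO 4, adjusted p = 0.24). Of all tested genes 0.381% were called higher in MIRKO. Median differences were -0.10 to 0.14 for the endothelial, Schwann cell, fibroblast, satellite cell and smooth muscle lists. The 5 erythrocyte markers had medians of -1.06 in MIRKO, -0.49 in MIGF1RKO and -0.55 for the difference, and all 5 were below 0 in each. Their sums were 23.7 to 50.7 CPM in MIRKO, against 56.1 to 60.3 in IRlox, and 30.4 to 68.3 in MIGF1RKO and 16.3 to 150 in IGFRlox. The adipocyte list summed to 2478 to 5561 CPM in MIRKO, against 2636 to 3241 in IRlox, and to 2230 to 3869 in MIGF1RKO and 1971 to 3099 in IGFRlox, with its highest value in MIRKO 4. The part of these values in the changes above was not tested.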

How the data were processed

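The authors deposited raw counts per Ensembl gene, 46071 genes by 34 libraries, aligned to GRCm38.p4 with STAR and counted with featureCounts, per the submitters' processing notes. Tool versions, annotation release and strand setting are not given in the sources used here. All 34 columns were matched to samples by their titles, which also give the groups. Replicate numbers follow accession order and pair nothing. That libraries come from separate mice is not stated in the labels, so p-values measure the spread between libraries. Of the IDs, 45229 matched GENCODE M21, which gave symbols and coordinates. RefSeq promoters were matched by symbol.

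Counts were analysed with edgeR 4.0.16 in R 4.3.3, beside DESeq2 1.42.0 and limma 3.58.1, and read with data.table (version 1.17.8). Genes were filtered by filterByExpr over the 8 groups, which left 13646, and totals were scaled by TMM. All 34 libraries entered 1 robust quasi-likelihood fit, with a mean for each group. Contrasts were the difference of effects, each knockout against its floxed controls, and IRlox against IGFRlox, with Benjamini-Hochberg adjustment over all tested genes. Errors of log2 changes are SE, worked back from the F statistic, and intervals are 95%. CPM uses scaled totals. Depth limits weakly expressed genes, where CPM carries counting error. Python 3.11.15 with pandas 2.3.3, numpy 2.4.6 and matplotlib 3.10.9 made summaries and figures. The fit was also run on simulated counts in which some genes changed in MIRKO only. That simulation held no effect of run or colony, so it says nothing about those.

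Gene lists (18 pathway lists with 572 entries and 9 marker lists), members and tests were chosen with earlier results of these data known. Named genes were Insr and Igf1r, up to 12 called for the difference in each direction, up to 10 in each direction called in both knockouts by the smaller absolute change, all with mean log2 CPM of 1 or more, and up to 3 members of each pathway list called for the difference, or the 1 with the smallest p. List members called in 1 knockout, and a few well-known members with no call, were named after their values were seen. Alternatives were DESeq2, DESeq2 size factors, library totals only, limma-voom, no filter, CPM above 1 in at least 3 libraries, library runs as a block, the 16 libraries only, all 12 floxed libraries as control, leaving out each library, and leaving out MIRKO 4 with MIGIRKO 6. Library runs as a block without MIRKO 4, and the look at MIGIRKO and QKO, were added after the data were seen.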

Additional observations from a re-analysis of the deposited data

Results flagged for a closer look

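The difference of effects, a test of whether the knockouts changed a gene unequally, was called for 3 genes, Insr (-1.66), Map3k7cl (-1.73) and Cpt2 (-0.97). The difference of effects contains the difference between the floxed colonies, with its sign turned, and for Map3k7cl the 2 cannot be told apart. The IRlox and IGFRlox libraries did not overlap for any of these 3 genes. The log2 change of IRlox against IGFRlox was -0.40 for Insr, 0.27 for Cpt2 and 0.83 for Map3k7cl. How many of all tested genes had such a gap was not counted, so nothing is read from it. The calls of Cpt2 and Map3k7cl were lost under several other settings. Single libraries far from the rest of their group were looked for in 203 groups of values (named genes and summed lists) of MIRKO, MIGF1RKO and IGFRlox. There 11 were found (5.42%), where chance gives about 1 in 20. IRlox, with 3 libraries, was too small for this rule and was not examined.

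Of these, 3 were in the library labelled MIRKO 4. Chrna1 was 354 CPM there against 54.0 to 61.5 in the other MIRKO libraries, Ccdc141 30.4 against 9.95 to 13.2, and the summed satellite cell markers 215 against 128 to 134. The erythrocyte markers summed to 50.7 CPM in MIRKO 1 and to 23.7 to 26.2 in the other MIRKO libraries. In MIGF1RKO, Odf3l2 was 4.01 CPM in library 2 against 2.12 to 2.64, Rab12 was 199 CPM in library 3 against 225 to 235, and the denervation list summed to 4968 CPM in library 1 against 4501 to 4612. Of the IGFRlox libraries, Chrna1 was 24.9 CPM in library 4 against 19.5 to 20.4, Actr3b was 97.3 CPM in library 2 against 46.5 to 46.6, complex II to V subunits summed to 12770 CPM in library 3 against 16094 to 16444, and Schwann cell markers to 647 CPM in library 1 against 312 to 366.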

How the results depend on the processing

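Insr kept its call for the difference under every alternative. The count of 3 genes called for the difference was 15 with DESeq2, 1 with library totals only, with library runs as a block, with the 16 libraries only, and with runs as a block without MIRKO 4, and 464 with all floxed libraries as one control, where the contrast becomes MIRKO against MIGF1RKO. The MIRKO count of 170 was 371 with DESeq2, 279 with library totals only, 102 with no filter, 74 with runs as a block, 352 with the 16 libraries only, 2830 with all floxed libraries, 33 without MIRKO 4 and MIGIRKO 6, and 8 with runs as a block without MIRKO 4. The MIGF1RKO count of 84 was 144 with DESeq2, 244 with all floxed libraries and 164 without MIRKO 4 and MIGIRKO 6. The 21 shared genes were 40 with DESeq2, 13 with runs as a block, 151 with all floxed libraries, 12 without MIRKO 4 and MIGIRKO 6, and 4 with runs as a block without MIRKO 4. IRlox against IGFRlox, at 23, had 60 with DESeq2, 12 with limma-voom, 13 with no filter and 5 with runs as a block. Leaving out 1 library at a time gave 1 to 4 genes for the difference (1 without MIRKO 3 or IRlox 1), 13 to 368 for MIRKO (13 without MIRKO 4, 17 without IRlox 2, 22 without IRlox 1, 39 without MIRKO 3 or IRlox 3, 286 without MIRKO 1 and 368 without MIRKO 2), 30 to 124 for MIGF1RKO (30 without IGFRlox 2), 3 to 28 for IRlox against IGFRlox and 3 to 25 shared genes. The causes were not tested.

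The sign of differences that were not called turned in places. Of the 21 shared genes 1, Aldh1a1, was called for the difference with all floxed libraries (adjusted p = 0.0070) and 0 as first fitted or under any other alternative. With all floxed libraries the difference was 0.15 for Mfhas1, 0.022 for Sytl2, -0.50 for Mss51, -0.16 for Odf3l2, -0.95 for Actr3b, -0.14 for Sorbs2, -0.53 for Cdk19 and, for a gene that is not among the shared ones, -0.66 for Musk, and the MIGF1RKO change of Insr was 0.079. With runs as a block it was -0.16 for Chrna1, -0.10 for Ccdc141, 0.016 for Mfhas1, -0.38 for Actr3b and -0.017 for Cdk19, and without MIRKO 4 as well -0.74 for Chrna1, -0.38 for Ccdc141, -0.14 for Actr3b and 0.042 for Rab12. With limma-voom it was -0.22 for Chrna1, -0.0040 for Mss51 and -0.29 for Actr3b. With library totals only it was 0.11 for Slc30a2, 0.0033 for Ctnna3 and 0.10 for Rab12. Without MIRKO 4 and MIGIRKO 6 it was -1.03 for Chrna1, -0.18 for Ccdc141, 0.19 for Slc30a2, 0.076 for Ctnna3 and 0.025 for Rab12. Leaving out 1 library at a time it ran from -0.36 to 0.40 for Actr3b, -0.18 to 0.49 for Ccdc141, -0.062 to 0.29 for Cdk19, -1.03 to 0.42 for Chrna1, -0.34 to 0.075 for Ctnna3, -0.15 to 0.39 for Mss51, -0.69 to 0.14 for Ostn, -0.19 to 0.024 for Rab12, -0.11 to 0.30 for Scn3b and -0.26 to 0.19 for Slc30a2.

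No paired analysis was possible because replicate numbers follow accession order and the labels name no pairs. Counts limit genes near 0 in a group, such as A4gnt and Gm10851.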

Other observations

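Below the threshold for the difference of effects, Lrtm1 came next by p (-1.41 ± 0.30, 95% interval -2.03 to -0.79, adjusted p = 0.19). It rose in MIGF1RKO (1.09 ± 0.20, adjusted p = 0.0056) and had a change of -0.32 ± 0.23 in MIRKO (adjusted p = 0.49). Sirt3, the main deacetylase of mitochondria, fell in MIRKO by 1.22 ± 0.25 (adjusted p = 0.014), with a difference of -1.41 ± 0.33 (adjusted p = 0.29). Dlat, the E2 subunit of pyruvate dehydrogenase, had a difference of -0.75 ± 0.17 (adjusted p = 0.29), with changes of -0.47 ± 0.13 in MIRKO and 0.28 ± 0.12 in MIGF1RKO. Ptpn3, a tyrosine phosphatase gene, fell in MIRKO by 1.09 ± 0.16 (adjusted p = 0.00051) and had a difference of -0.87 ± 0.22 (adjusted p = 0.29). In all, 32 genes had an adjusted p under 0.3 for the difference, and these were named after their values were seen.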
